A study of Mus musculus with 6 samples.

Results

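The messages described here encode proteins that leave the cell: the laminins, collagens and proteoglycans of the extracellular matrix, secreted ligands and their inhibitors, and a few other secreted glycoproteins. They were taken as the rows of the deposited table whose gene symbol is on a list of 51 names, and 32 of the 51 were found among the 6532 genes used. The other 19 (Col6a1, Fbn2, Igfbp3, Igfbp4, Igfbp5, Cyr61, Timp2, Ltbp1, Ltbp3, Tgfb1, Vegfa, Vegfb, Serpine2, Clu, Efemp1, Fst, Ptn, Lgals3bp and Dkk1) were not in the table and are not analysed here. The cells were E14, an established mouse embryonic stem cell line, kept on gelatin in medium with serum and LIF. Wild-type E14 cells were transfected for 36 h with 20 nM of a non-targeting siRNA pool (siCtrl) or of an siRNA pool against PKM1 and PKM2 (siPKM). Each siRNA gave 1 RNA library, made from total RNA without rRNA, and 1 ribosome profiling library of protected fragments (RPF, or footprints). The cells for these RNA and RPF libraries were given cycloheximide at 100 µg/ml for 2 min. Cells carrying PKM2 with FLAG and HA tags gave 2 FAST-iCLIP replicates, in which sites where reverse transcription stopped mark RNA crosslinked to the tagged enzyme by UV light. No control CLIP library was used here.

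A secreted protein usually starts with a signal peptide, which takes the ribosome to the endoplasmic reticulum (ER), where the chain is threaded into the lumen, folded and glycosylated. Laminin trimers, type IV collagen, nidogens and the heparan sulfate proteoglycans perlecan and agrin form the basement membrane, the first matrix of the embryo. Embryonic stem cells also make ligands of the TGF-beta family: Nodal, its inhibitors Lefty1 and Lefty2, Bmp4 and Gdf3, which act on pluripotency and on the choice of germ layers. The study's title connects metabolic enzymes to ribosomes at the ER, where most of these proteins are made.

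The table gave between 10349212 and 15175242 coding reads per library in these 6532 genes, and no gene fell below 151 coding reads in any of those 4 libraries. The members took 0.454% of coding reads in siCtrl RNA and 0.571% in siPKM RNA, and 0.862% and 1.15% in RPF. The targeted gene, listed as Pkm2, had 5024 CPM (coding reads scaled to the library's sum over the table) in siCtrl RNA and 1582 in siPKM RNA, and 5311 and 1683 CPM in RPF. Its log2 ratio of siPKM over siCtrl was -1.71 in RNA and -1.68 in RPF. Of 11 stem cell markers, 10 were in the table, with summed RNA levels of 5120 CPM in siCtrl and 4985 in siPKM. Their RPF sums were 5893 and 5574 CPM. Singly they differed in direction, with ratios from -0.38 (Lin28a) to 0.55 (Esrrb) in RNA and from -0.44 (Zfp42) to 0.35 (Esrrb) in RPF. Ratios below are log2 of siPKM over siCtrl relative to the median gene, with 95% intervals from the read counts. The intervals cover counting error only. With 1 library per group there was no test of the knockdown, no p-value can be given, and a difference between the cultures other than PKM cannot be told apart from the knockdown. Members at least 1.5-fold apart (0.585 on the log2 scale) were counted, beside the same count over all genes.

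Basement membrane messages were mostly higher in the siPKM libraries: of the 12 in the table, 9 had ratios above 0 in both RNA and RPF. Among all 6532 genes, 2433 were above 0 in both. At least 1.5-fold higher were 5 in RNA and 5 in RPF, of which 4 were so in both, against 1.56% of all genes in both. That much was reached by 2.88% of the whole table in RNA and by 2.66% in RPF. The median ratio of the 12 was 0.43 in RNA and 0.55 in RPF, where the median gene is at 0. Perlecan (Hspg2), the large heparan sulfate proteoglycan, had 136.8 CPM in siCtrl RNA and 283.6 in siPKM RNA, and 882 and 1583 CPM in RPF. Its ratios were 1.00 (0.92 to 1.09) in RNA, the highest of all members, and 0.82 (0.79 to 0.85) in RPF. Nidogen-1 (Nid1), which links laminin to collagen IV, went from 79.8 to 158 CPM in RNA and from 236 to 425 in RPF, with ratios of 0.94 and 0.83. Its relative nidogen-2 (Nid2) differed less, from 335 to 439 CPM in RNA and from 799 to 983 in RPF (0.34 and 0.28). Agrin (Agrn), a proteoglycan that also organises synapses, stood at 166.9 and 262 CPM in RNA and at 196.7 and 299 in RPF. Its ratios of 0.60 and 0.58 put it just past the 1.5-fold line in RNA and just short of it in RPF.

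The laminin chains did not differ in one direction. A laminin is a trimer of an alpha, a beta and a gamma chain, and Lama1 and Lama5 encode alternative alpha chains. Lama1 had 191 CPM in siCtrl RNA and 348 in siPKM RNA, and 205 and 362 CPM in RPF, with ratios of 0.82 (0.74 to 0.90) and 0.80 (0.73 to 0.87). Lama5 went the other way, from 373 to 308 CPM in RNA and from 526 to 426 in RPF, with a ratio of -0.32 in both. The beta chains were also split. Lamb1 went from 383 to 335 CPM in RNA and from 441 to 410 in RPF (-0.24 and -0.13), and Lamb2 from 45.8 to 59.7 and from 44.7 to 64.7 (0.34 and 0.51). The gamma chain Lamc1, shared by most laminins, stood at 0.22 in RNA and 0.14 in RPF. None of these 5 chains but Lama1 reached 1.5-fold, although the intervals of Lama5, Lamb1, Lamb2 and Lamc1 did not include 0 in RNA or in RPF.

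Collagen IV, the network-forming collagen, is built from the products of Col4a1 and Col4a2, which lie head to head. Col4a1 had 47.9 CPM in siCtrl RNA and 83.6 in siPKM RNA, and 72.0 and 110.4 CPM in RPF, with ratios of 0.76 (0.60 to 0.91) and 0.59 (0.48 to 0.71). Col4a2 had 22.4 and 32.9 CPM in RNA and 31.7 and 61.1 in RPF, with ratios of 0.51 (0.28 to 0.75) and 0.92 (0.76 to 1.09). Both were thus higher in siPKM, and in these coding reads Col4a1 was so more in RNA and Col4a2 more in footprints. Over the whole transcript, RNA reads went from 760 to 1107 for Col4a1 and from 305 to 444 for Col4a2, a similar rise. The coding reads were 88.9% of Col4a2's RNA reads in siCtrl and 76.8% in siPKM, and 76.3% and 78.1% of Col4a1's. Col18a1, the core protein of the basement membrane collagen that releases endostatin, was lower instead, at 592 and 495 CPM in RNA and 784 and 658 in RPF (-0.30 and -0.27).

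**Figure D1:**
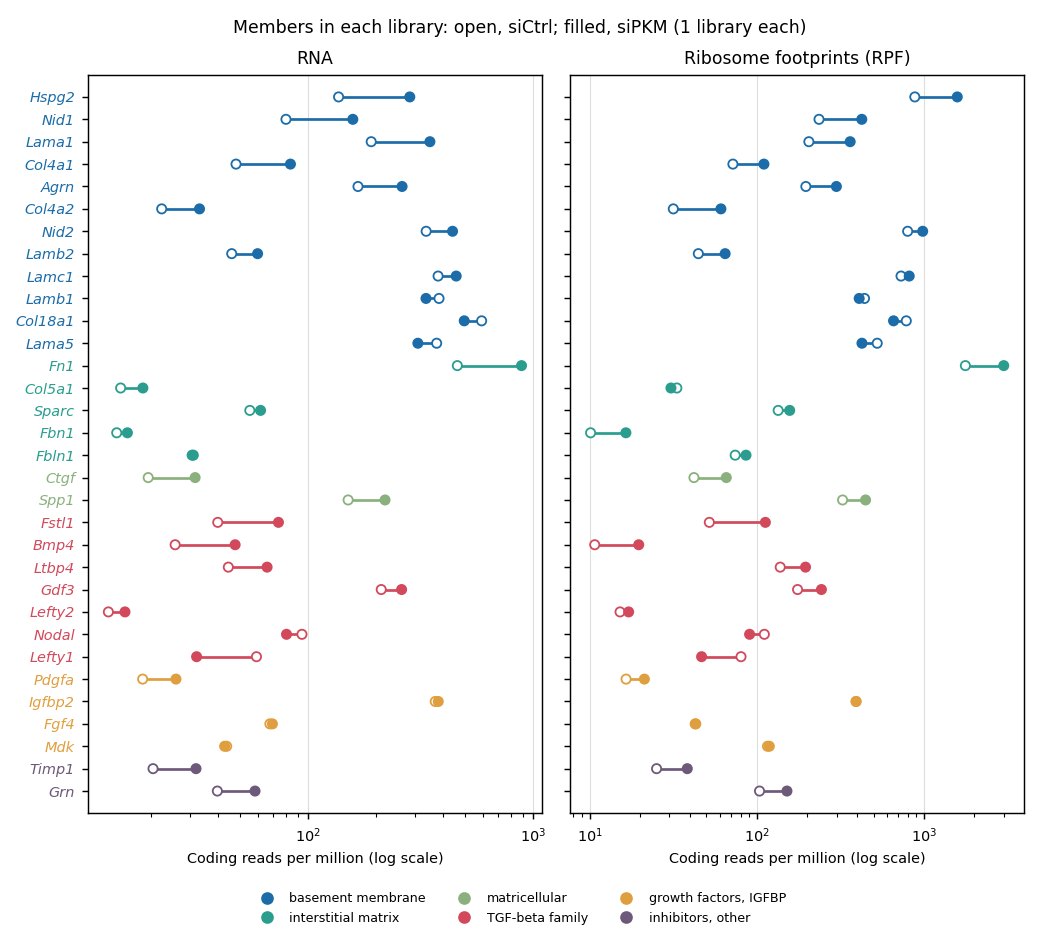
Coding reads in CPM (log axis) of the 32 members in the 4 libraries, RNA on the left and RPF on the right; open circles are siCtrl, filled circles siPKM, and a line joins the pair. Hspg2, Nid1, Lama1 and Fn1 lie higher in siPKM in both panels, and Lama5, Lamb1, Col18a1, Nodal and Lefty1 lie lower.

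Upstream sequence is shown for 4 members with 1 annotated start each: Nid1 and Hspg2, with the highest RNA ratios of the basement membrane list, and Lama5 and Nodal, with ratios below 0. The RefSeq promoter table of build GRCm38.p6 held a window for 23 of the 32 members. The 250 bases before the start site are given 5′ to 3′ on the gene's strand, which is chr13:13437352-13437601 (+) for Nid1, chr4:137468553-137468802 (+) for Hspg2, chr2:180225860-180226109 (-) for Lama5 and chr10:61417722-61417971 (+) for Nodal. Capitals mark matches on either strand to the TATA box TATAAA, the CCAAT box CCAAT, the GC box GGGCGG, the AP-1 motif TGANTCA, the TEAD motif CATTCC and the HIF motif ACGTG.
Nid1: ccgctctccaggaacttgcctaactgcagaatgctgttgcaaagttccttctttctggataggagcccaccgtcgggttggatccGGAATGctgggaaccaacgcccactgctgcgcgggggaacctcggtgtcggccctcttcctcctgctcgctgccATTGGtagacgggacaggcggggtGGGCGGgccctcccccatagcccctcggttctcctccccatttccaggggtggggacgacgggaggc
Hspg2: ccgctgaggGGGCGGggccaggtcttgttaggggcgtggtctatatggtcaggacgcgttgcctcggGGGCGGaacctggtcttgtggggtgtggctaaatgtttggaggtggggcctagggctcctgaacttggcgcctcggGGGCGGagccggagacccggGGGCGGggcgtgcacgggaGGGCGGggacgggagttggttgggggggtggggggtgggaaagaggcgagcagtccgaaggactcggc
Lama5: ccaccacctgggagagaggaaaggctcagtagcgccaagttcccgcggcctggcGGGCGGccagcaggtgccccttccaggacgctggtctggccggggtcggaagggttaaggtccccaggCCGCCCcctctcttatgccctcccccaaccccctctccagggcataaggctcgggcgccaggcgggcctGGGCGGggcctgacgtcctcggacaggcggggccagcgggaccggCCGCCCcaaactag
Nodal: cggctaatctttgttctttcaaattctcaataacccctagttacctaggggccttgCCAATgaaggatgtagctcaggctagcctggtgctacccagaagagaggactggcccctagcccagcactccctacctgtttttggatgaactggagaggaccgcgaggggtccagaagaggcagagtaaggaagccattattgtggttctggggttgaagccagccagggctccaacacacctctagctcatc

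Hspg2 had 5 GC boxes in this stretch and Lama5, which differed in the other direction, had 4. Nid1 had 1 GC box, 1 CCAAT box and 1 TEAD match, and Nodal had 1 CCAAT box. In the full windows of 300 bases, GC boxes were found in 19 of the 23 members, against 73.3% of the 5284 table genes that have a window. CCAAT boxes were found in 11 (43.4% of table genes), HIF matches in 5 (32.9%), TEAD matches in 4 (13.1%), and TATA boxes and AP-1 matches in 1 each (7.83% and 4.83%). These are matches of letters and not binding sites. The windows of Col4a1 and Col4a2 overlapped by 78 bases.

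Among the interstitial and matricellular proteins, fibronectin (Fn1), the cell-adhesive glycoprotein bound by integrins, differed most in RNA. It had 461 CPM in siCtrl RNA and 889.9 in siPKM RNA, and 1769.5 and 3001 CPM in RPF, with ratios of 0.90 (0.85 to 0.95) and 0.74 (0.72 to 0.76). Connective tissue growth factor (Ctgf, now Ccn2), a matricellular protein, went from 19.5 to 31.5 CPM in RNA and from 42.1 to 65.8 in RPF, with ratios of 0.65 (0.40 to 0.89) and 0.62 (0.47 to 0.77). Osteopontin (Spp1), a secreted phosphoprotein, stood at 150.8 and 220.1 CPM in RNA and at 326 and 448 in RPF (0.50 and 0.44).

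The other 4 interstitial members were nearer the median gene in RNA. The collagen-binding protein Sparc had ratios of 0.11 in RNA and 0.21 in RPF, and the elastic fibre protein fibulin-1 (Fbln1) of -0.03 and 0.19. Fibrillin-1 (Fbn1), the main microfibril protein, had 14.1 and 15.7 CPM in RNA and 10.1 and 16.5 in RPF, with ratios of 0.11 (-0.21 to 0.43) and 0.68 (0.37 to 0.99). The fibrillar collagen Col5a1 had 14.7 and 18.5 CPM in RNA and 33.3 and 30.7 in RPF, with ratios of 0.28 (-0.02 to 0.58) and -0.14 (-0.33 to 0.06). Fbn1 and Col5a1 are the shallowest of the group, with 154 to 207 and 178 to 505 coding reads per library.

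The 7 members listed as TGF-beta family ligands, latency proteins or inhibitors split by gene, around a median ratio of 0.25 in RNA and 0.45 in RPF. Lefty1, a secreted inhibitor of Nodal, was the only member at least 1.5-fold lower, where 1.24% of the table was that low in RNA and 1.53% in RPF. It had 59.0 CPM in siCtrl RNA and 32.0 in siPKM RNA, and 80.5 and 46.8 CPM in RPF, with ratios of -0.93 (-1.12 to -0.74) and -0.80 (-0.95 to -0.66). Nodal itself had 94.0 and 80.3 CPM in RNA and 111 and 90.6 in RPF (-0.27 and -0.31). Lefty2, the near-identical neighbour of Lefty1, had 157 and 159 coding RNA reads and ratios of 0.20 (-0.13 to 0.53) and 0.15 (-0.13 to 0.42). Reads that match both Lefty genes could not be assigned here, so their values are uncertain.

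Bmp4, a ligand of the BMP branch, was higher in siPKM, with 25.7 and 47.4 CPM in RNA and 10.7 and 19.7 in RPF and ratios of 0.84 (0.63 to 1.05) and 0.85 (0.56 to 1.15). Follistatin-like 1 (Fstl1), a secreted glycoprotein of the follistatin and SPARC families, had the highest RPF ratio of the members. It went from 39.7 to 73.9 CPM in RNA and from 52.1 to 112.6 in RPF, with ratios of 0.85 (0.68 to 1.02) and 1.09 (0.97 to 1.22). Ltbp4, which holds latent TGF-beta in the matrix, stood at 44.3 and 65.8 CPM in RNA and at 138 and 196 in RPF (0.53 and 0.48). Gdf3, a stem cell ligand related to Nodal, stood at 212 and 261 CPM in RNA and at 175 and 244 in RPF (0.25 and 0.45).

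The 4 growth factors and IGF-binding proteins differed little, with medians of -0.01 in RNA and 0.00 in RPF. Fgf4, the autocrine growth factor of stem cells, had 67.7 and 69.5 CPM in RNA and 42.8 and 43.2 in RPF, and both ratios were -0.01. Igfbp2, which binds insulin-like growth factors, stood at 368 and 379.5 CPM in RNA and at 392.8 and 392.7 in RPF (-0.00 and -0.02). The heparin-binding factor midkine (Mdk) had ratios of -0.08 and 0.01, and Pdgfa, a ligand of the PDGF receptor, of 0.44 (0.18 to 0.71) and 0.34 (0.09 to 0.60). The 4 messages thus lay within 1.5-fold in RNA and RPF, and the intervals of the first 3 included 0.

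The protease inhibitor Timp1, which blocks matrix metalloproteinases, and granulin (Grn), a secreted growth factor that is also lysosomal, were both higher. Timp1 had 20.5 and 31.8 CPM in RNA and 25.2 and 38.4 in RPF, with ratios of 0.59 (0.35 to 0.83) and 0.59 (0.39 to 0.79). Grn had 39.5 and 58.2 CPM in RNA and 103.9 and 151.6 in RPF, with ratios of 0.51 (0.33 to 0.69) and 0.52 (0.43 to 0.62). In the GRCm38.p6 gene table Timp1 overlaps Syn1, Nid2 overlaps Rtraf, Mdk overlaps Chrm4 and Col4a1 overlaps Col4a2, and whether the counting used strand is not given in the sources used here.

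Over all 32 members, the RNA ratio was at least 1.5-fold higher for 10 and lower for 1, and the RPF ratio for 11 and 1. Of all genes, 2.88% were that much higher and 1.24% lower in RNA, and 2.66% and 1.53% in RPF. The members' median was 0.34 in RNA and 0.44 in RPF, where the median of all genes is 0 by construction. Of the members, 9 were past 1.5-fold in RNA and RPF together (Hspg2, Nid1, Lama1, Col4a1, Fn1, Ctgf, Bmp4, Fstl1 and Timp1), against 1.56% of all genes. Footprints come from ribosomes on these messages, so the RNA and RPF ratios of a gene are not independent measures of a difference. The ratios of RNA and RPF had the same sign in 29 of 32 members, and the exceptions were Col5a1, Fbln1 and Mdk. Most genes in the table also shared a sign: of all 6532, 2433 were above 0 in both, 2433 below 0 in both and 1666 had opposite signs.

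**Figure D2:**
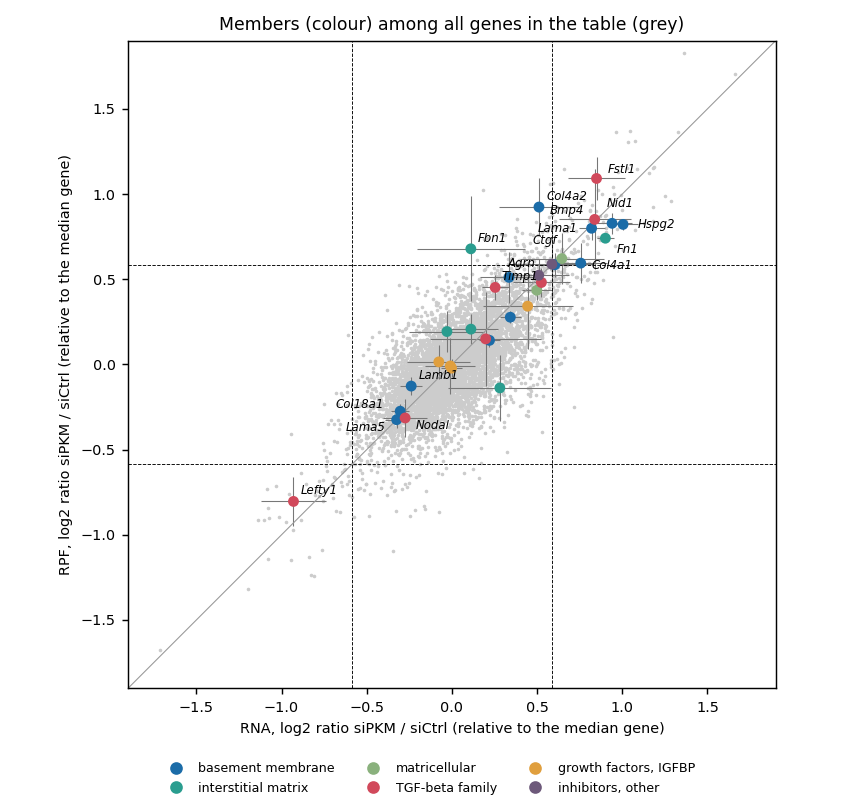
Log2 ratio of siPKM over siCtrl in RNA (x axis) and RPF (y axis), each relative to the median gene, for the members (colour, with 95% intervals from the read counts) and all 6532 genes (grey); dashed lines mark 1.5-fold. The members lie along the diagonal, with 9 in the upper right corner and Lefty1 alone in the lower left.

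Markers of other cell types could be read only in part, because the table lists no gene with fewer than 151 coding reads in a library, so the level of an unlisted marker is unknown. Of 14 markers of primitive and parietal endoderm, which makes much basement membrane, Apoe, Cubn and Lrp2 were listed, and Gata4, Gata6 and Sox17 were not. The 3 summed to 659.5 CPM in siCtrl RNA and 903 in siPKM RNA, with Apoe at 0.71 and Cubn and Lrp2 at 0.07 and 0.01. Of 12 fibroblast markers only Vim was listed, at 229.3 and 304 CPM (0.36). Of 9 trophoblast markers, Krt8 (0.59), Krt18 (0.37) and Tcfap2c (-0.60) were listed, summing to 77.5 and 83.6 CPM. Of 5 neural markers Pax6, Nes and Tubb3 were listed, summing to 177 and 125 CPM, and of 4 mesoderm markers 0 were listed. Whether a change in cell types had a part in the matrix ratios was not tested.

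Translation efficiency (TE), the footprints per RNA read, was compared next. The change in TE is the RPF ratio minus the RNA ratio, centred on the median gene. No member was 1.5-fold higher or lower in TE, and over all genes the shares were 0.184% and 0.827%. The members' median was -0.01. Intervals of 9 members did not include 0 (28.1%), beside 28.7% of all genes. Higher in TE were Fbn1 at 0.56 (0.13 to 1.00), Col4a2 at 0.41 (0.13 to 0.69), Fstl1 at 0.24 (0.03 to 0.45), Gdf3 at 0.20 (0.09 to 0.30) and Lamb1 at 0.11 (0.03 to 0.19). The Col4a2 value depends on the use of coding reads, which were a smaller share of its RNA reads in siPKM (76.8%) than in siCtrl (88.9%). Lower were Col5a1 at -0.42 (-0.77 to -0.07), Hspg2 at -0.19 (-0.28 to -0.09), Fn1 at -0.16 (-0.22 to -0.11) and Lamc1 at -0.08 (-0.15 to -0.01). Hspg2 and Fn1, with high RNA ratios, thus had somewhat smaller ratios in footprints than in RNA.

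In the control cells given siCtrl, most of the members' messages carried many footprints for their RNA. In siCtrl, 28 of the 32 lay above the median gene in TE, against 50.0% of all genes by construction, and the members' median was 0.65 on the log2 scale. All 12 basement membrane members were above it. Hspg2 stood highest at 2.86 (2.79 to 2.94), followed by Fn1 at 2.12 (2.07 to 2.16), Ltbp4 at 1.82 (1.68 to 1.95), Nid1 at 1.74 (1.64 to 1.84) and Mdk at 1.59 (1.45 to 1.73). The 4 below the median gene were Bmp4 at -1.08 (-1.35 to -0.81), Fgf4 at -0.48 (-0.63 to -0.34), Fbn1 at -0.30 (-0.61 to 0.01) and Gdf3 at -0.09 (-0.17 to -0.02). A TE value of this kind compares genes within these 2 libraries and can include effects of read mapping and nuclease digestion.

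**Figure D3:**
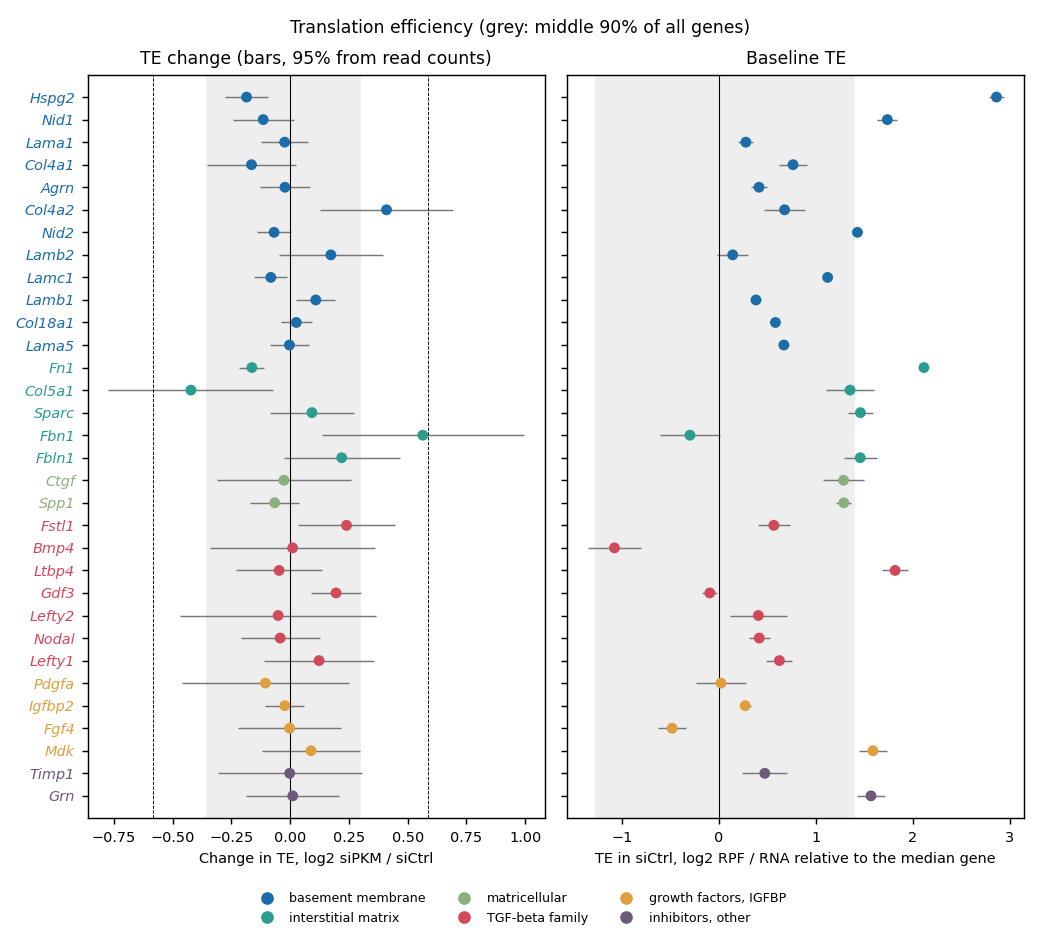
Left, change in TE (log2, siPKM over siCtrl) and right, baseline TE in siCtrl (log2 RPF over RNA, relative to the median gene) of the members, with 95% intervals from the read counts; grey bands hold the middle 90% of all genes. The points of the TE change lie inside the dashed lines at 1.5-fold, and Hspg2 and Fn1 lead the baseline.

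The position of reads along each message was examined next. A region's share of a transcript's reads also depends on its length, so footprints are set against RNA of the same gene. Bmp4 had 46.7% (95% Clopper-Pearson interval 41.2 to 52.4) of its siCtrl footprints in the 5' UTR, against 20.0% (16.5 to 23.8) of its RNA reads, and 40.6% (36.0 to 45.3) of footprints in siPKM. Pdgfa had 29.8% of siCtrl and 28.6% of siPKM footprints there, against 9.95% and 12.0% of RNA reads. Fgf4 had 24.0% of siCtrl and 26.7% of siPKM footprints in the 5' UTR, against 4.81% and 3.87% of RNA reads. The median member had 1.92% of its siCtrl footprints in the 5' UTR and the median gene 3.85%, so these 3 ligands stood apart from the other members in both conditions.

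The first 15 codons, which encode the start of the signal peptide in a typical secreted protein, held 1.38% of the footprints of the median member in siCtrl and 1.46% in siPKM, and 4.32% and 4.24% of those of the median gene. Many members are long proteins, in which 15 codons are a small part. Lefty2 (21.6% and 17.1%), Lefty1 (14.8% and 16.6%), Sparc (14.5% and 11.4%) and Fgf4 (13.6% and 10.5%) had the highest shares. Of their siCtrl RNA reads, the same codons held 2.42% for Lefty2, 4.71% for Lefty1, 1.60% for Sparc and 1.08% for Fgf4, with 0.862% for the median member and 1.61% for the median gene. From siCtrl to siPKM the share was higher in 17 members and lower in 15, with a median change of 0.02 percentage points. The 3' UTR held 80.3% of siCtrl RNA reads for Lefty2, 76.7% for Fgf4 and 71.9% for Fstl1, and 26.2% for the median gene. Of their siCtrl footprints it held 0.625%, 2.66% and 0.338%.

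**Figure D4:**
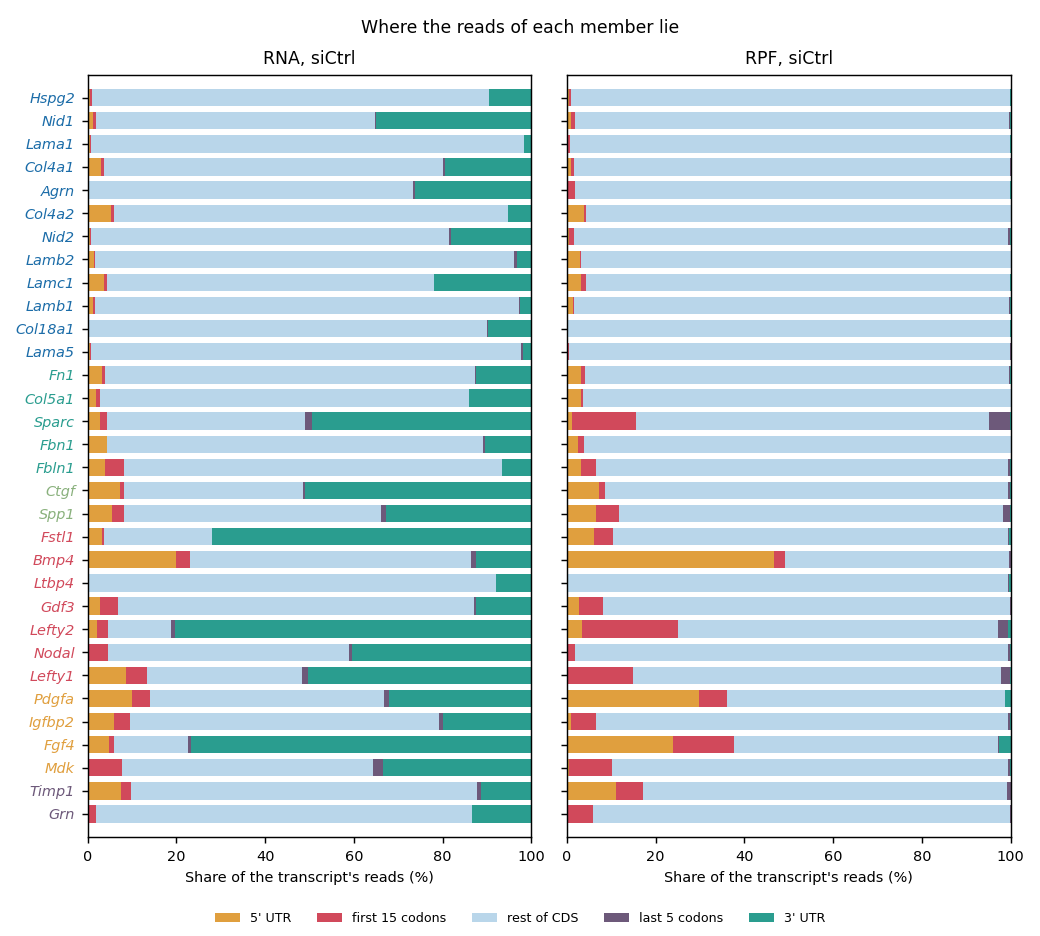
Share of each member's reads (%) by region, from the 5' UTR through the start, body and end of the coding sequence (the start is its first 15 codons, the end its last 5) to the 3' UTR, for siCtrl RNA (left) and siCtrl RPF (right). Footprints lie mostly in the coding sequence, except for the 5' UTR shares of Bmp4, Pdgfa and Fgf4.

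The CLIP replicates were used to ask which of these messages tagged PKM2 contacts. They held 677534 and 670508 stops, and the members took 1.94% and 1.84% of them. Scaled to CPM, fibronectin had 3625 and 3356 (3490 ± 190, SD, n = 2), Lamc1 1759 and 1854 (1807 ± 66.8), Hspg2 1904 and 1687 (1795 ± 154) and Nid2 1768 and 1618 (1693 ± 106). Stops were then divided by the control RNA of the whole transcript and centred on the median gene. This RNA came from wild-type cells given siCtrl and cycloheximide, and the stops from cells carrying tagged PKM2. A difference in RNA level between these cells would enter the value. Of the 32 members, 22 were at least 2-fold above the median gene in both replicates, against 22.0% of all genes, and 1 was at least 2-fold below it, against 17.7%. The members' median was 1.76 on the log2 scale. High values were not particular to the members, since the related gene lists given below also exceeded the share of all genes. Nothing in the labels says that the replicates came from separate cultures, so the SD may be technical.

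Highest in CLIP over RNA were Hspg2 at 4.14 ± 0.12 (log2, SD, n = 2), Ltbp4 at 3.62 ± 0.13, Nid1 at 3.55 ± 0.07, Bmp4 at 3.29 ± 0.12, Fn1 at 3.24 ± 0.07 and Mdk at 3.05 ± 0.02. Lefty1 was lowest at -2.60 ± 0.34, from 10 and 14 stops, and Lefty2 the next at -0.42 ± 0.11, from 29 and 32. Col4a1 (0.58 ± 0.37) and Col4a2 (0.58 ± 0.67), with 50 and 34 and with 22 and 11 stops, differed most between replicates. Among the laminins Lamc1 (2.39) and Lama5 (2.08) lay above Lama1 (1.78), Lamb1 (1.14) and Lamb2 (1.09).

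CLIP over RNA was set beside baseline TE. Pearson's r between them was 0.46 and Spearman's rho 0.52 across the 32 members, and 0.21 and 0.19 across all 6532 genes, as a description of these genes only, since both values are divided by reads of the same RNA library. With control footprints on the coding sequence as the divisor in place of RNA, 10 members were at least 2-fold above the median gene in both replicates, against 24.0% of all genes, and the members' median was 0.73. The members' share was 31.2%, nearer that background than their 68.8% over RNA. The 10 were Bmp4 (4.25), Fgf4 (3.93), Pdgfa (2.28), Fstl1 (2.10), Agrn (1.92), Nid1 (1.70), Sparc (1.58), Mdk (1.5), Lefty2 (1.22) and Ltbp4 (1.15). Hspg2 and Fn1 stood at 0.65 and 0.61 per footprint. Stops were counted on the whole transcript and footprints on the coding sequence, so long untranslated regions raise this value.

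**Figure D5:**
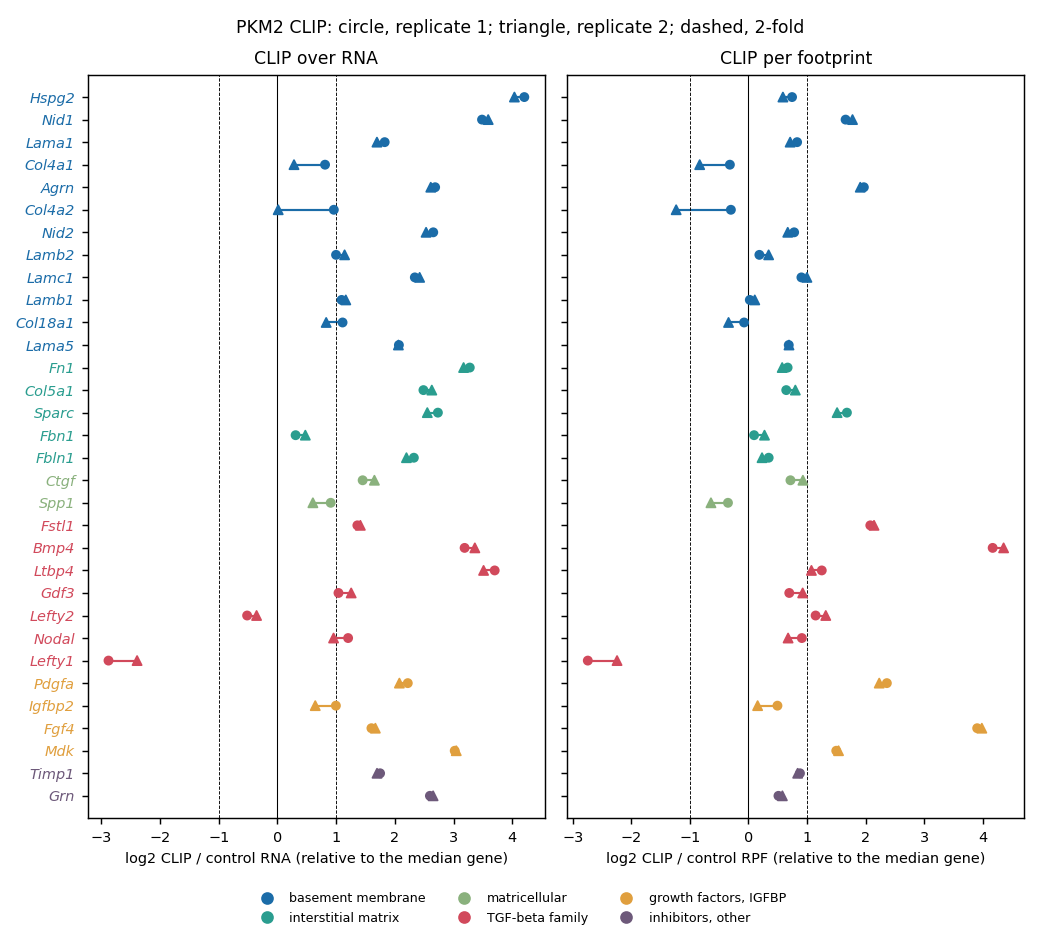
Log2 CLIP over control RNA (left) and per control footprint (right), each relative to the median gene, for every member in replicate 1 (circle) and replicate 2 (triangle); dashed lines mark 2-fold. Most members lie to the right of 2-fold over RNA, Lefty1 lies far to the left in both panels, and Bmp4 and Fgf4 lie farthest right per footprint.

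Other genes that make, bind or cut the matrix were taken from lists chosen with earlier results of these data known, and are read against the same 2.88% and 2.66% of all genes. Of 15 matrix receptors in the table, 13 had ratios above 0 in RNA and in RPF, where 2433 of all 6532 genes did. Among these receptors 5 passed 1.5-fold upwards in RNA and 2 in RPF, and 0 downwards. The integrin alpha chain Itga3 stood at 0.97 in RNA and 0.79 in RPF, the glypican Gpc4 at 1.01 and 0.67, and the integrin chains Itga6 at 0.62 and 0.57, Itgav at 0.64 and 0.49 and Itga5, which pairs to bind fibronectin, at 0.62 and 0.46. Over all 15 receptors the TE change was above 0 in 4 and below 0 in 11, with a median of -0.15.

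Of 23 genes for collagen and proteoglycan synthesis and export, 2 passed 1.5-fold upwards in RNA and 2 in RPF, and 0 were that much lower. The collagen chaperone Serpinh1 stood at 0.60 and 0.81, the lysyl hydroxylase Plod1 at 0.48 and 0.61 and the heparan sulfate polymerase subunit Ext2 at 0.73 and 0.26. Of 11 matrix-cleaving and remodelling enzymes, 4 passed 1.5-fold upwards in RNA and 3 in RPF, and 0 downwards. The serine protease Htra1 stood at 1.05 and 1.37, the cathepsin Ctsl at 0.66 and 0.79 and the metalloproteinase Adam9 at 0.62 and 0.55. The heparan sulfatases differed in direction, with Sulf2 at 0.71 and 0.59 and Sulf1 at -0.47 and -0.56, the latter short of 1.5-fold and named after its values were seen.

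Receptors and effectors of the secreted ligands were read in the same way. Of 14 genes of the TGF-beta, Nodal and BMP pathways, Pcsk6, a convertase that cleaves Nodal and Lefty precursors, was at least 1.5-fold higher, at 0.60 in RNA and 0.84 in RPF, and 0 were that much lower. Skil, at -0.50 in RNA and -0.58 in RPF, was just short of 1.5-fold lower and was named after its values were seen. Of 9 growth factor receptors Igf1r was at least 1.5-fold higher, at 0.62 and 0.67. The medians of these lists were 0.21 in RNA for each, and 0.16 and 0.10 in RPF. CLIP over RNA was at least 2-fold above the median gene in both replicates for 22.0% of all genes. Among related genes it was so for 13 of 15 matrix receptors, 9 of 23 synthesis and export genes and 8 of 11 matrix-cleaving enzymes. For the TGF-beta, Nodal and BMP genes it was 9 of 14, and for the growth factor receptors 7 of 9.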

How the data were processed

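Per the file headers, the authors deposited raw counts of reads per transcript region (5' UTR, first 15 codons, rest of the CDS, last 5 codons, 3' UTR) for the 4 RNA and RPF libraries, and raw counts of reverse transcription stops for both CLIP replicates. They also deposited log2 RPM, whose library totals served in 1 alternative here. Per the submitters' processing notes, cutadapt and Bowtie2 were used with mm9; the counter, multi-mapping and strand settings are not given in the sources used here. Per the labels' protocols, footprints were made with RNase A and T1.

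For symbols listed more than once, only the row with most RNA was used (3 rows dropped). The authors' own columns of log2 CLIP enrichment and log2 TE were not used, and both measures were computed anew from the counts. CDS reads plus 0.5 were divided by the library's sum and centred on the median gene. Ratio intervals are exact conditional binomial intervals, and TE intervals are normal on the log scale (scipy 1.17.1, Python 3.11.15). They cover counting error only, since PCR copies of a molecule are not independent. CLIP over RNA also used 0.5 added counts, and 0 stops allow up to 4.43 and 4.47 CPM (3 counts). The code was tested on simulated data. Alternatives were TMM factors (edgeR 4.0.16), other totals, floors, regions, folds and divisors. All members in the table are named, with related genes past 1.5-fold. RefSeq identifiers of all 32 members matched the GRCm38.p6 gene table, used for names and neighbours; 1 has another current symbol. The members and lists were chosen with earlier results of these data known.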

Additional observations from a re-analysis of the deposited data

How the results depend on the processing

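Under TMM factors, the authors' totals, 5 added reads and the inclusion of the first 15 and last 5 codons, every count of members past 1.5-fold stayed within 1.5 times its value and no such member changed direction. Agrn passed 1.5-fold in RPF under TMM factors (0.59) and the authors' totals (0.61) and with the floor below (0.62), and Timp1 fell short in RNA and RPF (0.58 each) with 5 added reads. At a lower threshold of 0.32 on the log2 scale, 17 members were higher and 2 lower in RNA (12.4% and 8.47% of all genes), 18 and 2 in RPF (11.1% and 8.70%), and 2 and 1 in TE (3.80% and 6.26%). At 2-fold, 1 was higher and 0 lower in RNA (0.321% and 0.153% of all genes), and 1 and 0 in RPF (0.306% and 0.138%). With a floor of 600 mean coding reads, 18 members were left, with 7 higher in RNA (2.43% of the 3248 genes left) and 7 in RPF (1.88%) and 0 lower in either (0.862% and 1.05%), because Lefty1 was below it. Leaving out Lefty1 and Lefty2 was a choice made after seeing the data. It left 0 members lower in RNA or RPF by construction, since Lefty1 was the only such member. The count of members 2-fold above the median gene in CLIP was 23 without replicate 1 (24.9% of all genes) and 24 without replicate 2 (25.1%), and their medians were 1.70 and 1.79. With coding RNA as the divisor the CLIP median was 1.92, and with control footprints the count was 10 and the median 0.73. The planned count of members with a hydrophobic start was not run, since no protein sequences were used here. No paired analysis was possible because the siRNA groups had no replicate libraries. Depth limits Fbn1, Lefty2, Col5a1 and Bmp4 most, with 154 to 178 coding reads in their shallowest library.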
